A study of Mus musculus with 12 samples.

Results

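The genes described here are 9 transcription factors of microglia and of the lysosome, *Irf8*, *Mef2a*, *Runx1*, *Bhlhe40*, *Bhlhe41*, *Hif1a*, *Mitf*, *Tfeb* and *Tfec*. They were taken by name, with earlier results of these data known, and each was found under a single Ensembl identifier among the 55487 genes of the count table. All 9 were among the 15425 genes that were tested after a filter on low counts. Messenger RNA had been sequenced in bulk from CD11b-positive cells, which magnetic beads had captured from the papain-digested cortex of 12 male mice. CD11b also marks macrophages, monocytes and neutrophils, so the beads can take these up beside microglia. There were 4 groups of 3 mice. WT mice were injected with PBS (veh, for vehicle) or with rh Bri2 BRICHOS R221E, a recombinant chaperone domain with a single amino acid replaced. App NL-G-F mice, in which the *App* gene itself carries the Swedish, Iberian and Arctic mutations of familial Alzheimer's disease, received the same. These are knock-in mice, so that no transgene promoter drives *App*. According to the paper they produce human amyloid-β, and the WT mice were of their background strain. In all groups, treatment began at 9 months of age and ran for 12 weeks with 24 i.v. injections (10 mg/kg of the protein, where it was given), and 4 weeks without injections followed.

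IRF8, MEF2A and RUNX1 bind enhancers of myeloid cells together with the lineage factor PU.1 and take part in the formation or the resting state of microglia. BHLHE40 and BHLHE41 are basic helix-loop-helix repressors that bind the E-box CACGTG and act in the circadian clock and on macrophage genes. MITF, TFEB and TFEC form part of the MiT/TFE family, which binds a related E-box, the CLEAR element, in front of lysosomal genes. Some members of the family are held back from the nucleus by mTORC1 and the Rag GTPases. HIF1A is the oxygen-regulated subunit of HIF-1, is marked for degradation by prolyl hydroxylases, and binds ACGTG in front of glycolytic and other genes. RNA was measured, and neither protein nor nuclear location was.

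Since 5 of the 9 genes code for E-box binders, the promoters of the 9 genes were searched for this motif in RefSeq's sequences (GRCm38.p6), from 250 bases before to 50 bases after each start site. Promoters were found for 8 of the 9 genes, 14 in all. The E-box CACGTG, which reads the same on both strands, was in 3 of them (21.4%), against 7.15% of 32851 mouse promoters. These 3 promoters are shown in the direction of transcription, with the E-box in capitals. For *Hif1a* these are the bases before the start site (chr12:73907617-73907866, plus strand), for *Bhlhe41* those that lie in no annotated exon (chr6:145865559-145865670, minus strand), and for *Runx1*, whose E-box lies in an annotated exon, 30 bases around it (chr16:92826128-92826157, minus strand).
Hif1a: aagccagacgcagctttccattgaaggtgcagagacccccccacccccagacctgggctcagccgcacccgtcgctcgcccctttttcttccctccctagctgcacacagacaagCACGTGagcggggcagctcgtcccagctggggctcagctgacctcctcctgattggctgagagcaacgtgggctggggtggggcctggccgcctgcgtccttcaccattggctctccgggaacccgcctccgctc
Bhlhe41: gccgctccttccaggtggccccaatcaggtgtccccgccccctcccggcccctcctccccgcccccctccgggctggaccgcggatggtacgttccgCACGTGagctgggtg
Runx1: catcacttaagtCACGTGattggcaagagc
The E-box began -135 bases from the start site in *Hif1a*, -153 in *Bhlhe41* and -71 in *Runx1*. The start sites are RefSeq's, and those of GENCODE M21 differ in part. For *Hif1a*, 2 of 5 GENCODE transcripts start 37 bases further downstream, and another starts 6492 bases upstream, so the window lies in front of an internal start and within an intron of the longest annotated transcript. The first GENCODE start lies 138 bases upstream of RefSeq's in *Bhlhe41* and 75 in *Runx1*. The HIF core ACGTG, which the E-box contains, was found on either strand in 6 of the 14 promoters (42.9%, against 19.6% of all), these 3 included. The ETS core GGAAGT and the RUNX site TGTGGTT were searched as well. The ETS core was in 2 of the 14 promoters (14.3%, against 23.8% of all) and the RUNX site in 3 (21.4%, against 5.27%). A match describes the letters of the window, and binding was not measured.

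Libraries held between 12433402 and 17889654 reads counted on genes. Levels are given in CPM, counts brought to a common library size, with TMM factors that allow for library composition, and 3 counts, taken as the limit of detection, are worth 0.169 to 0.226 CPM. Differences are log2 fold changes of edgeR's quasi-likelihood fit to all 12 libraries, with standard errors (SE). A gene was called up- or downregulated where its p-value, adjusted over the tested genes by the method of Benjamini and Hochberg, was under 0.05. The 10 microglia markers were all detected, with a sum of 27605 to 31974 CPM per library, although 3 of them were upregulated and 7 downregulated in the knock-in mice after veh and 3 and 6 after treatment. Markers of other cells differed between groups. The 10 astrocyte markers summed to 449.9 to 639 CPM in WT mice given veh, 454 to 859 in treated WT, 1471 to 4718 in knock-in mice given veh and 679 to 1976 in treated knock-in mice. In the same order, 7 border macrophage markers summed to 405 to 477, 534 to 654, 176 to 242 and 178 to 238 CPM, and 7 monocyte and neutrophil markers to 45.3 to 426, 84.4 to 413, 27.8 to 41.1 and 16.9 to 48.7 CPM. Again in this order, the sums of 8 oligodendrocyte markers were 9708 to 17002, 4164 to 15718, 3250.0 to 5678 and 4529 to 6237 CPM, those of 8 endothelial markers 678 to 756, 613 to 842, 509.8 to 669 and 409.6 to 475 CPM and those of 6 choroid plexus markers 862 to 3946, 3267 to 6786, 642 to 1978 and 648 to 977 CPM. Each of these markers had counts in each group. Between genotypes edgeR called as downregulated 6 endothelial, 2 oligodendrocyte and 0 choroid plexus markers after veh and 7, 0 and 6 in treated mice, and as upregulated 10 astrocyte markers after veh and 1 in treated mice. In bulk samples, fewer cells of a type and less RNA per cell cannot be told apart. An astrocyte score was tried as a covariate, and the part of the other cells in the results was not tested.

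To compare genes with one another, CPM were divided by exon length (RPKM, mean ± SD, n = 3). In WT mice given veh, *Irf8* was highest (55.2 ± 4.74 RPKM), followed by *Mef2a* (41.0 ± 1.86), *Hif1a* (24.9 ± 0.323) and *Bhlhe41* (16.2 ± 0.917). *Tfeb* (9.56 ± 0.298) and *Runx1* (9.19 ± 0.679) overlapped between mice and were ahead of *Mitf* (6.41 ± 0.225), *Bhlhe40* (4.99 ± 0.174) and *Tfec* (0.225 ± 0.0407). In knock-in mice given veh the order was another. *Hif1a* led with 119 ± 5.82 RPKM, ahead of *Irf8* with 78.2 ± 4.81, and *Bhlhe40* (34.9 ± 4.85), *Mef2a* (30.1 ± 0.590) and *Bhlhe41* (27.3 ± 4.81) overlapped. *Mitf* followed with 11.9 ± 0.446 RPKM, *Runx1* (9.56 ± 0.620) and *Tfeb* (8.86 ± 0.493) again overlapped, and *Tfec* was last (0.127 ± 0.0325). Thus *Hif1a* went from rank 3 to 1, *Bhlhe40* from 8 to 3 and *Mef2a* from 2 to 4. Treated knock-in mice had the order of those given veh. In treated WT mice *Bhlhe40* (7.59 ± 1.18 RPKM) was at rank 7 and overlapped its neighbours *Runx1* (8.83 ± 0.463) and *Mitf* (6.49 ± 0.142).

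To examine the difference between the genotypes, App NL-G-F mice were compared with WT mice, first after veh. *Hif1a*, *Bhlhe40*, *Mitf*, *Bhlhe41* and *Irf8* were upregulated, *Mef2a* and *Tfec* were downregulated, and *Runx1* and *Tfeb* did not pass the test. The highest fold changes were those of *Bhlhe40* (7.00-fold) and *Hif1a* (4.78-fold). Of the 9 genes 5 were upregulated and 2 downregulated, where 20.1% of all tested genes were upregulated and 16.9% downregulated. Of the downregulated genes, *Tfec* had passed the filter on low counts through WT libraries alone, and its call did not hold in several other fits given with its values, which leaves 1 downregulated gene in them. The genotypes did not overlap in 7 of the 9 genes, as in 50.8% of all tested genes, so that lack of overlap alone does not set a gene apart. The median log2 fold change was 0.50 for the 9 genes and -0.02 for all tested genes.

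The comparison was then made in treated mice, which share no library with the mice given veh. Both comparisons come from the same fit to all 12 libraries, with a common filter and estimate of spread. Their p-values are therefore not fully independent. Here 6 of the 9 genes were upregulated and 2 downregulated (all tested genes, 20.8% and 21.8%), and 8 did not overlap (51.8% of all). The 7 genes called after veh were called again in the same direction, and *Runx1* was called in addition. Over all tested genes, 4110 were called in the same direction in both comparisons, which was 72.0% of the 5710 called after veh and 62.7% of the 6560 called in treated mice.

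**Figure D1:**
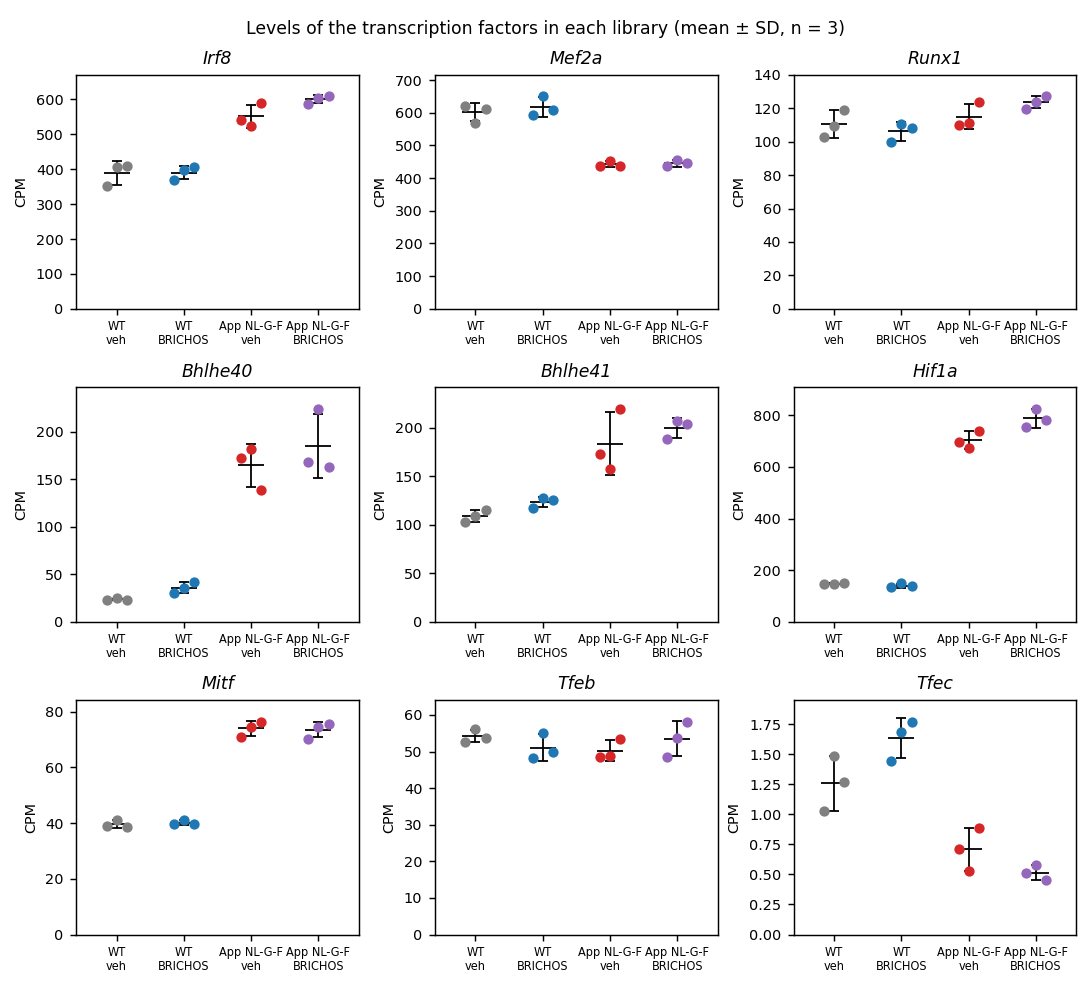
Level of each transcription factor in CPM (vertical axes, from 0) in each of the 12 libraries, by group (horizontal axes), with points for mice and bars for the mean and SD (n = 3). *Hif1a* lies between 133 and 149 CPM in the 6 WT mice and between 672 and 826 CPM in the 6 knock-in mice, while the groups of *Tfeb* overlap.

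The myeloid factors differed in direction. *Irf8* (ENSMUSG00000041515, chromosome 8 from 120736358 to 120756694), an interferon regulatory factor of myeloid progenitors and microglia, was at 351, 407 and 410.5 CPM in WT and at 541, 524 and 589.5 CPM in knock-in mice given veh. In treated mice it was at 368, 398 and 406 CPM in WT and at 588, 605 and 610.4 CPM in knock-in mice. Every knock-in mouse was above every WT mouse. The log2 fold change was 0.50 (SE 0.0701, edgeR adjusted p = 0.000183) after veh and 0.62 (SE 0.0701, edgeR adjusted p = 3.27e-05) in treated mice.

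*Mef2a* (ENSMUSG00000030557, chromosome 7 from 67231163 to 67372858), a MADS-box factor, changed the other way. It was at 621, 570.2 and 612 CPM in WT and at 436, 452 and 438 CPM in knock-in mice given veh, and in treated mice at 594, 652 and 608 against 436, 457 and 445 CPM. The genotypes were fully separated, and knock-in mice lay closer together (SD 8.66 and 10.4 CPM) than WT mice (SD 27.4 and 30.2 CPM). Log2 fold changes were -0.44 (SE 0.0525, edgeR adjusted p = 5.20e-05) and -0.47 (SE 0.0525, edgeR adjusted p = 2.95e-05). *Lysmd4*, whose exons overlap those of *Mef2a* on the opposite strand, had at most 127 counts in a library, and *Mef2a* at least 5897. The strand setting of the counting is not given in the sources used here.

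*Runx1* (ENSMUSG00000022952, chromosome 16 from 92601466 to 92826149), a runt-domain factor of blood cell formation, was at 103, 109 and 119 CPM in WT and at 109.9, 111 and 123 CPM in knock-in mice given veh. These values overlapped, and no difference was detected (log2 fold change 0.06, 95% confidence interval -0.09 to 0.20, edgeR adjusted p = 0.532). In treated mice the levels, 99.8, 110.3 and 108 CPM in WT and 119.8, 124 and 127 CPM in knock-in mice, did not overlap (log2 fold change 0.22, SE 0.0667, edgeR adjusted p = 0.0205). This call was lost without treated WT mouse 1 (edgeR adjusted p = 0.0726) or treated knock-in mouse 3 (0.0607), and the 2 genotype effects were not shown to differ (difference 0.16, edgeR adjusted p = 0.447).

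Among 14 further transcription factors of myeloid cells and microglia, 2 were upregulated and 7 downregulated in knock-in mice given veh (median log2 fold change -0.24), and 4 and 5 in treated mice (median -0.13). The 5 downregulated in treated mice were 4 by DESeq2, and became 3 without treated WT mouse 1 or treated knock-in mouse 1 or 3. Of the 5, *Elf1* (edgeR adjusted p = 0.0453) lost its call in 11 of the fits that leave out 1 of the 12 libraries. With the astrocyte score as a covariate, 1 of the 14 was upregulated and 2 downregulated after veh (median -0.10). In treated mice 4 and 4 then were (median -0.11). Over all tested genes, 20.1% and 16.9% were up- and downregulated after veh and 20.8% and 21.8% in treated mice. These shares also stand beside the counts of the lists below. *Maf*, a macrophage bZIP factor, fell from 529 to 249.5 CPM (log2 fold change -1.08, SE 0.0797, edgeR adjusted p = 1.17e-06). *Sall1*, a factor of microglial identity, fell from 859.6 to 521 CPM (log2 fold change -0.72, edgeR adjusted p = 2.62e-05), and *Smad3*, which carries TGF-beta signals, from 148 to 118 CPM (-0.32, edgeR adjusted p = 0.000336). *Mef2c* and *Mef2d*, paralogs of *Mef2a*, rose where *Mef2a* fell, by 0.32 and 0.29 on the log2 scale (edgeR adjusted p = 0.000308 and 0.000199). Among 17 tested paralogs and binding partners of the 9 genes, *Mef2c* and *Mef2d* included, 4 were upregulated and 4 downregulated (median 0.03), and 5 and 4 in treated mice (median 0.03). The 4 downregulated paralogs and partners became 2 without WT mouse 2 or 3 and 1 without knock-in mouse 1 after veh, and 2 without WT mouse 2 or 3 or knock-in mouse 1 in treated mice. By DESeq2 there were 3 in treated mice. There, *Irf2* (edgeR adjusted p = 0.0446) lost its call in 11 of the fits with a library left out. *Runx2*, a paralog of *Runx1* at a low level, rose from 1.01 to 3.92 CPM (log2 fold change 1.95, SE 0.277, edgeR adjusted p = 0.000213), and the interferon-inducible *Irf1* from 185 to 438 CPM (1.24, edgeR adjusted p = 0.000478).

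Both E-box repressors were upregulated, to different degrees. *Bhlhe40* (ENSMUSG00000030103, chromosome 6 from 108660629 to 108666925) was at 23.0, 24.4 and 23.0 CPM in WT and at 172, 182 and 139 CPM in knock-in mice given veh. With treatment the levels were 30.3, 35.3 and 41.4 CPM in WT and 168, 224 and 163 CPM in knock-in mice. The genotypes were far apart, and WT mice given veh lay within an SD of 0.819 CPM. The log2 fold change was 2.81 after veh (SE 0.154, edgeR adjusted p = 1.11e-07), or 7.00-fold with a 95% confidence interval of 5.54 to 8.85, and 2.37 in treated mice (SE 0.149, edgeR adjusted p = 2.97e-07). In size it exceeded the changes of 98.7% and 96.8% of all tested genes.

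*Bhlhe41* (ENSMUSG00000030256, chromosome 6 from 145858243 to 145865558) was at 103, 109 and 115 CPM in WT and at 173, 157 and 219.5 CPM in knock-in mice given veh, where mouse 3 was highest. In treated mice it was at 118, 127 and 125 against 188, 206 and 204 CPM. All knock-in mice were above all WT mice. Log2 fold changes were 0.75 (SE 0.102, edgeR adjusted p = 0.000155) and 0.69 (SE 0.102, edgeR adjusted p = 0.000238). In RPKM, *Bhlhe41* was above *Bhlhe40* in WT mice, the paralogs overlapped in knock-in mice given veh, and *Bhlhe40* was the higher in treated knock-in mice.

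Of 16 genes of the circadian clock, 3 were upregulated and 2 downregulated after veh (median log2 fold change 0.06), and 3 and 8 in treated mice (median -0.41). *Nfil3*, a bZIP repressor, rose from 12.6 to 55.1 CPM (log2 fold change 2.12, SE 0.200, edgeR adjusted p = 8.66e-06), and *Tef*, a PAR bZIP activator, fell from 97.3 to 65.3 CPM (-0.57, edgeR adjusted p = 0.000252). *Per1*, a repressor of the clock, rose by 0.49 (edgeR adjusted p = 0.0127). *Npas2*, a paralog of *Clock*, rose from 1.25 to 2.71 CPM (1.12, edgeR adjusted p = 0.0143), while its value in treated mice was -0.65 (edgeR adjusted p = 0.118). The call of *Npas2* was lost without WT mouse 1 or 2 or knock-in mouse 1 given veh (edgeR adjusted p up to 0.0617), and that of *Per1* without knock-in mouse 2 (0.0529). The downregulated clock genes became 1 without WT mouse 3 or knock-in mouse 1 after veh. In treated mice there were 5 to 7 with any library left out, with 5 without knock-in mouse 1 or 3. DESeq2 gave 6 in treated mice. The hour of tissue collection is not given in the sources used here. Among 10 LXR receptors and targets, which serve cholesterol export, 3 were upregulated and 2 downregulated (median 0.18), and 4 and 2 in treated mice (median 0.12). The lipid carrier *Apoe* had a log2 fold change of 3.50 (SE 0.106, edgeR adjusted p = 2.21e-09), the acyltransferase *Lpcat3* one of -0.61, the lipogenic factor *Srebf1* one of 0.81 and the cholesterol exporter *Abca1* one of -0.32, all called.

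*Hif1a* (ENSMUSG00000021109, chromosome 12 from 73901375 to 73947530) was at 145, 148 and 149 CPM in WT and at 698, 672 and 739.8 CPM in knock-in mice given veh. Treated mice had 133, 148 and 136 CPM in WT and 755, 826 and 784 CPM in knock-in mice. The lowest knock-in mouse was far above the highest WT mouse. The log2 fold change was 2.26 after veh (SE 0.0601, edgeR adjusted p = 8.74e-10), or 4.78-fold with a 95% confidence interval of 4.37 to 5.24, and 2.50 in treated mice (SE 0.0606, edgeR adjusted p = 5.26e-10). By p-value *Hif1a* ranked 4 among the tested genes after veh and 2 in treated mice. The antisense gene *Gm15283*, which overlaps its exons, had at most 22 counts in a library, and *Hif1a* at least 1995.

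Of 28 HIF-1 target genes, 20 were upregulated in knock-in mice given veh and 0 downregulated, by edgeR and by DESeq2 alike (4 were lower at an unadjusted p-value under 0.05), with a median log2 fold change of 0.84. Without WT mouse 1 or knock-in mouse 1 or 3 given veh, or treated WT mouse 1 or 2, 1 was downregulated. In treated mice 19 were upregulated and 5 downregulated (median 0.77). *Egln3*, a prolyl hydroxylase that marks HIF1A for degradation, rose from 2.88 to 81.0 CPM (log2 fold change 4.83, SE 0.188, edgeR adjusted p = 8.22e-09). The glycolytic enzymes *Tpi1*, *Gpi1* and *Aldoa* rose by 1.67, 1.32 and 1.29 on the log2 scale (edgeR adjusted p = 4.53e-08, 7.39e-08 and 7.85e-08). Processed copies of glycolytic genes exist in the genome, and how reads shared between copies were counted is not given in the sources used here. The HIF core ACGTG was in 21 of the 37 promoters (56.8%) found for 26 of the target genes, against 19.6% of all promoters. HIF-1 binds this core and the genes were listed as its targets, so this share is not independent of the choice of the list.

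Of 11 regulators and partners of HIF1A, with *Egln3* among them, 2 were upregulated and 2 downregulated after veh (median 0.08). These counts are near the shares of all tested genes (20.1% and 16.9%). In treated mice 3 were upregulated and 0 downregulated by edgeR (median 0.05), with 0 lower at an unadjusted p-value under 0.05 and 0 by DESeq2. With library totals, however, 3 were upregulated and 7 downregulated in treated mice (median -0.22). *Elob*, a subunit of the ubiquitin ligase that removes HIF1A, rose by 0.53 (edgeR adjusted p = 0.000593). The hydroxylase *Egln2* fell from 42.9 to 36.3 CPM (-0.24, edgeR adjusted p = 0.0148) and *Arnt*, the partner subunit within HIF-1, from 78.6 to 69.6 CPM (-0.18, edgeR adjusted p = 0.0243). The call of *Arnt* was lost without any 1 of the mice given veh but knock-in mouse 3 (edgeR adjusted p up to 0.106), which left 1 downregulated gene of this list.

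**Figure D2:**
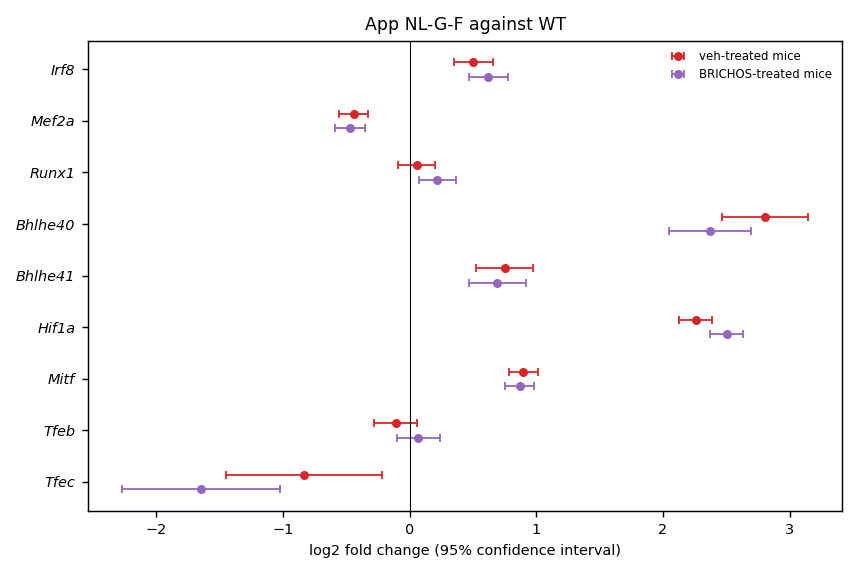
Log2 fold change of each transcription factor between the genotypes, App NL-G-F over WT (horizontal axis), after veh and after treatment, with bars for the 95% confidence intervals of edgeR's fit (n = 3 per group). *Bhlhe40* and *Hif1a* lie above 2 in both, and *Mef2a* and *Tfec* lie below 0. *Tfeb* lies near 0, as does *Runx1* after veh, while the interval of *Runx1* in treated mice excludes 0 (0.07 to 0.37). When libraries are scaled by their totals, *Runx1* and *Tfeb* in treated mice turn to -0.05 and -0.20.

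The 3 MiT/TFE genes each behaved differently. *Mitf* (ENSMUSG00000035158, chromosome 6 from 97807052 to 98021349) was at 39.0, 41.3 and 38.8 CPM in WT and at 71.0, 74.5 and 76.5 CPM in knock-in mice given veh. After treatment it was at 39.6, 41.2 and 39.8 against 70.4, 74.7 and 75.5 CPM. The genotypes were separated by far more than the spread within groups (SD 0.879 to 2.76 CPM). Log2 fold changes were 0.90 (SE 0.0530, edgeR adjusted p = 1.95e-07), or 1.86-fold, and 0.87 (SE 0.0528, edgeR adjusted p = 2.21e-07).

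*Tfeb* (ENSMUSG00000023990, chromosome 17 from 47737030 to 47792419) was at 52.7, 56.0 and 53.8 CPM in WT and at 48.5, 48.7 and 53.5 CPM in knock-in mice given veh, and in treated mice at 48.1, 55.1 and 49.8 against 48.5, 53.8 and 58.2 CPM. The genotypes overlapped in both comparisons. Log2 fold changes were -0.11 (95% confidence interval -0.28 to 0.06, edgeR adjusted p = 0.287) and 0.07 (-0.10 to 0.24, edgeR adjusted p = 0.509). In fold, the intervals were 0.824 to 1.04 and 0.932 to 1.18.

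*Tfec* (ENSMUSG00000029553, chromosome 6 from 16833373 to 16898441), whose expression is largely limited to macrophages, had few counts. In mice given veh it had 15, 25 and 17 counts in WT and 11, 8 and 12 in knock-in mice (1.03, 1.48 and 1.27 against 0.711, 0.525 and 0.888 CPM). In treated mice it had 23, 30 and 31 against 8, 9 and 6 counts (1.45, 1.69 and 1.77 against 0.516, 0.575 and 0.453 CPM). All WT mice were above all knock-in mice given the same treatment. *Tfec* passed the filter on low counts through the WT groups, so that its place among the tested genes is not independent of this difference. The log2 fold change was -0.83 (SE 0.280, edgeR adjusted p = 0.0363) after veh and -1.65 (SE 0.284, edgeR adjusted p = 0.00072) in treated mice.

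The call of *Tfec* after veh was lost with DESeq2's Wald test (adjusted p = 0.138), with only the compared groups in edgeR's fit (0.0736), without a filter (0.134) and with the astrocyte score (0.532). It was also lost without WT mouse 2 (0.132) or 3 (0.0781) given veh, treated WT mouse 2 (0.0528), or knock-in mouse 1 (0.0929) or 2 (0.137) given veh. Its log2 fold change in these fits was -0.84, -0.84, -0.84 and -0.58 and, with a library left out, between -0.84 and -0.66. In treated mice the call was kept in each fit that tested *Tfec*. Of the 7 border macrophage markers 6 were downregulated in knock-in mice after veh and 6 in treated mice (median log2 fold change -1.04 and -1.51), and of the 7 monocyte and neutrophil markers 6 and 4. Their part in the level of *Tfec* was not tested.

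Of 39 lysosomal genes with a CLEAR element, 29 were upregulated and 2 downregulated in knock-in mice after veh (median log2 fold change 0.50), and 32 and 1 in treated mice (median 0.61). *Ctsb*, a lysosomal cysteine protease, rose from 3042 to 9755 CPM (log2 fold change 1.68, SE 0.0717, edgeR adjusted p = 1.79e-08). *Hexa* and *Glb1*, which degrade gangliosides, and the carboxypeptidase *Scpep1* rose by 1.46, 1.78 and 1.13 on the log2 scale (edgeR adjusted p = 2.99e-08, 4.49e-08 and 8.98e-08). The E-box CACGTG was in 14 of the 35 promoters (40.0%) found for 29 of these genes, against 7.15% of all promoters. These genes were listed for having a CLEAR element, itself an E-box, so this share is not independent of the choice of the list.

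Of the 8 tested genes that depend on MITF in osteoclasts or macrophages, 5 were upregulated and 2 downregulated after veh (median 0.43), and 5 and 1 in treated mice (median 0.62). The proton pump subunit *Atp6v0d2* went from 0.454 to 68.9 CPM and the fusion receptor *Dcstamp* from 0.520 to 20.2 CPM, both from near the limit of detection. These 2 genes reached the filter's 0.619 CPM in 1 of 6 WT libraries each and were tested only because they were high in knock-in mice, so that their place among the upregulated genes of the list was given by the filter. *Gpnmb*, a membrane glycoprotein, was at 3.42, 4.15 and 26.9 CPM in WT and at 1129.9, 1194 and 2129 CPM in knock-in mice given veh (log2 fold change 7.05, SE 0.691, edgeR adjusted p = 1.16e-05). WT mouse 3 stood apart, and without it the log2 fold change was 8.61. In treated mice, at 4.72, 3.54 and 3.66 against 1423, 1846 and 2434 CPM, it was 8.90. *Dcstamp* also moved, from 5.27 to 6.21 without WT mouse 1 given veh. The count of downregulated genes of this list fell to 1 without WT mouse 1 or 2 or knock-in mouse 1 or 2 after veh, and rose to 2 without treated WT mouse 3. *Ostm1*, a chloride transporter subunit, rose from 58.0 to 75.8 CPM (0.39, edgeR adjusted p = 0.000854). Genes that act on the MiT/TFE proteins at the lysosome were mixed. Of 26, 10 were upregulated and 4 downregulated after veh (median 0.04), and 11 and 3 in treated mice (median 0.10). The Rag GTPases *Rragd* and *Rragc* rose from 6.66 to 39.5 CPM and from 108 to 155 CPM (log2 fold change 2.57 and 0.53, edgeR adjusted p = 1.44e-07 and 6.91e-06). *Fnip2*, a partner of folliculin, rose from 68.1 to 134 CPM (0.97, edgeR adjusted p = 4e-06), and *Rptor*, a subunit of mTORC1, fell from 211 to 166 CPM (-0.34, edgeR adjusted p = 6.52e-05).

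**Figure D3:**
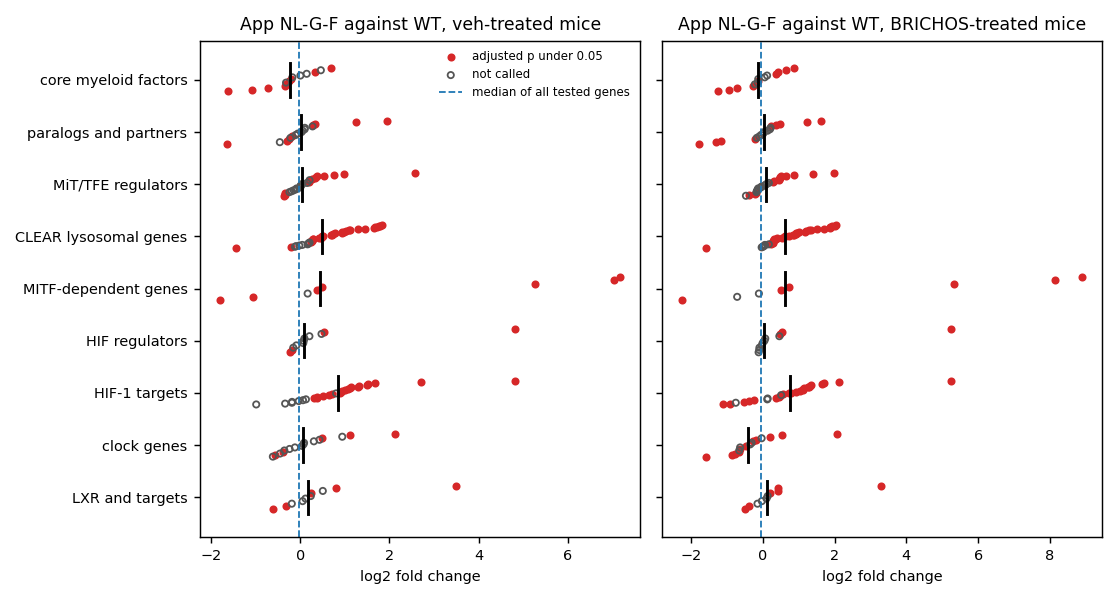
Log2 fold change between the genotypes (horizontal axes) of each tested gene of the 9 pathway lists (rows), after veh on the left and after treatment on the right, where filled points passed edgeR's adjusted p of 0.05, open points did not, black bars are list medians and the dashed line is the median of all tested genes. On the left, CLEAR genes and HIF-1 targets have medians of 0.50 and 0.84, whereas the medians of the MiT/TFE regulators (0.04), HIF regulators (0.08), clock genes (0.06), paralogs (0.03) and LXR genes (0.18) turn negative when libraries are scaled by their totals.

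The smaller differences depend on the scaling. TMM factors were 0.874 to 0.952 in knock-in and 1.05 to 1.10 in WT libraries, and with library totals alone the median of all genes moved by -0.19 (log2) after veh and -0.27 in treated mice. *Runx1* then was at -0.13 and -0.05 (edgeR adjusted p = 0.115 and 0.519), and *Tfeb* was called as downregulated, at -0.30 and -0.20 (edgeR adjusted p = 0.00656 and 0.0353). *Irf8* was at 0.31 and 0.35, *Mef2a* at -0.64 and -0.74, *Bhlhe41* at 0.56 and 0.42 and *Mitf* at 0.71 and 0.60, all still called. *Hif1a* (2.07 and 2.23) and *Bhlhe40* (2.62 and 2.10) remained above 2. Of the lists after veh, 23 and 6 CLEAR genes were then up- and downregulated (median 0.31), 16 and 3 HIF-1 targets (0.66), 5 and 2 MITF-dependent genes (0.24), 5 and 9 MiT/TFE regulators (-0.15), 2 and 4 HIF regulators (-0.11), 2 and 6 clock genes (-0.14), 3 and 7 paralogs and partners (-0.16), 2 and 9 core factors (-0.43) and 2 and 3 LXR genes (-0.01). In treated mice library totals gave 23 and 5 CLEAR genes (median 0.34), 16 and 5 HIF-1 targets (0.49) and 5 and 2 MITF-dependent genes (0.35). They gave 6 and 12 MiT/TFE regulators (-0.17), 3 and 7 HIF regulators (-0.22) and 1 and 11 clock genes (-0.68). For paralogs and partners they gave 3 and 7 (-0.25), for core factors 1 and 9 (-0.40) and for LXR genes 1 and 3 (-0.14). Which scaling is nearer to RNA per cell was not measured.

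**Figure D4:**
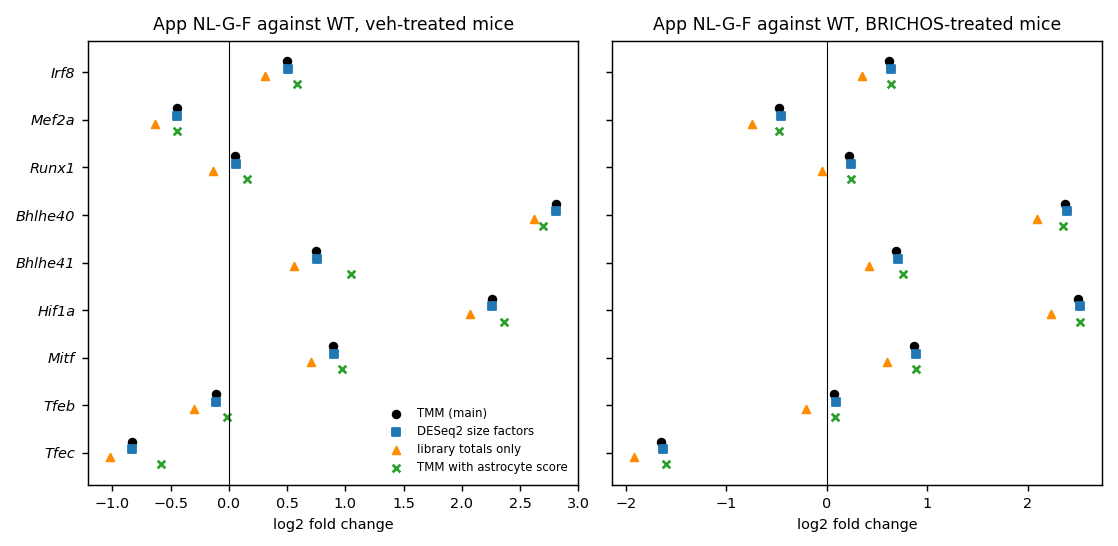
Log2 fold change of each transcription factor between the genotypes (horizontal axes), after veh on the left and after treatment on the right, in edgeR's fit with TMM factors (circles), DESeq2's size factors (squares), library totals alone (triangles) or TMM factors and an astrocyte score (crosses). Triangles lie to the left of the circles for each gene, which turns *Runx1* to -0.13 and -0.05 and *Tfeb* after treatment to -0.20.

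To see whether rh Bri2 BRICHOS R221E affected these genes in knock-in mice, treated mice were compared with those given veh. By edgeR 0 of the 9 genes were called, where 0.00648% of all tested genes were. DESeq2's Wald test, which called only 119 of the 15425 tested genes, called 0 of the 9 as well. At an unadjusted p-value under 0.05 there was 1 gene, *Hif1a*, where the share of all tested genes was 10.8%. *Hif1a* was at 755, 826 and 784 CPM with and at 698, 672 and 739.8 CPM without the protein. It was the 1 gene of the 9 whose groups did not overlap (13.4% of all tested genes), and all treated mice were higher, further from the WT level. The log2 fold change was 0.16 (95% confidence interval 0.04 to 0.29, edgeR adjusted p = 0.343). Of the other 8 genes, *Tfec* had an interval of -1.12 to 0.24, and the intervals of the remaining 6 lay within that of *Bhlhe40* (-0.14 to 0.48). The astrocyte markers summed to 679 to 1976 CPM with and 1471 to 4718 CPM without the protein, and the endothelial markers to 409.6 to 475 and 509.8 to 669 CPM. With the astrocyte score as a covariate, *Hif1a* was at 0.10 on the log2 scale and was not called, and the part of endothelial cells was not tested. The median log2 fold change was 0.11 for the 9 genes and 0.01 for all tested genes.

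In WT mice the same comparison gave 0 calls among the 9 genes by edgeR, where 0% of all tested genes were called, and 1 gene, *Bhlhe40*, at an unadjusted p-value under 0.05, where the share was 11.4%. *Bhlhe40* was at 30.3, 35.3 and 41.4 CPM with and at 23.0, 24.4 and 23.0 CPM without the protein, and all treated mice were higher. The log2 fold change was 0.61 (95% confidence interval 0.28 to 0.94, edgeR adjusted p = 0.239), and DESeq2's Wald test, which called 80 genes in all, gave an adjusted p of 0.0330. The groups of *Bhlhe41* did not overlap either, at 118, 127 and 125 against 103, 109 and 115 CPM (log2 fold change 0.18, 95% confidence interval -0.04 to 0.40, edgeR adjusted p = 0.539), which makes 2 of the 9 genes (17.6% of all tested genes). In the same mice 6 choroid plexus markers summed to 3267 to 6786 CPM with and 862 to 3946 CPM without the protein, and the border macrophage markers to 534 to 654 and 405 to 477 CPM, and their part in *Bhlhe40* was not tested. The intervals of the other 7 genes lay between -0.26 and 0.16, except for *Tfec* (-0.18 to 0.93).

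**Figure D5:**
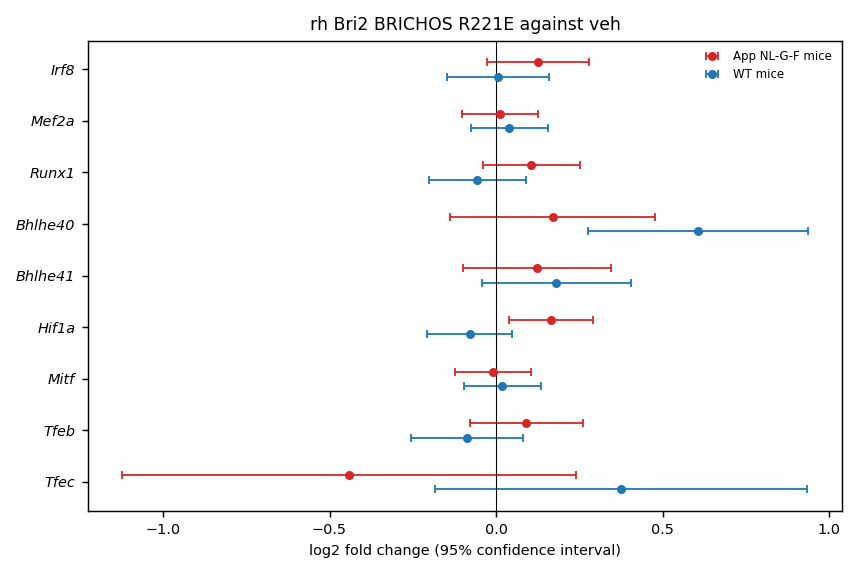
Log2 fold change of each transcription factor between treated mice and mice given veh (horizontal axis), in App NL-G-F and in WT mice, with bars for the 95% confidence intervals of edgeR's fit (n = 3 per group). The intervals of *Hif1a* in knock-in mice (0.04 to 0.29) and of *Bhlhe40* in WT mice (0.28 to 0.94) exclude 0, and by edgeR none of the 9 genes passed the adjusted p-value in either genotype.

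Whether the treatment effect differed between the genotypes was tested directly. By edgeR it did so in 0 of the 9 genes (0.00648% of all tested genes), and by DESeq2 in 0 (244 of all 15425 tested genes). At an unadjusted p-value under 0.05 it did so in 1, *Hif1a* (14.8% of all). The effect on *Hif1a* was 0.16 in knock-in and -0.08 in WT mice, a difference of 0.24 (95% confidence interval 0.07 to 0.42, edgeR adjusted p = 0.227). For *Bhlhe40* the difference was -0.44 (-0.89 to 0.01, edgeR adjusted p = 0.352). In the 9 pathway lists edgeR called 0 genes in the treatment comparisons or their difference. In knock-in mice DESeq2's Wald test called *Epas1*, a paralog of *Hif1a*, and *Pfkp*, a glycolytic enzyme, among 119 genes in all. It called *Apoe* in WT mice, among 80, and *Pfkp* and the hexokinase *Hk1* for the difference, among 244. These genes were named after their values were seen. In knock-in mice *Epas1* was at 87.4 CPM with and 154 CPM without the protein and *Pfkp* at 14.9 and 29.9 CPM, with edgeR adjusted p-values of 0.278 and 0.291. Markers of other cells were lower in the same mice. DESeq2's Wald test called 3 of 8 endothelial and 1 of 7 mural cell markers as downregulated and 0 of 10 astrocyte markers, and at an unadjusted p-value under 0.05 by edgeR 7, 3 and 10 of them were lower. Their part in *Epas1* and *Pfkp* was not tested. Of the pathway lists, at that p-value, which 10.8% of all tested genes passed, 2 and 0 of 39 CLEAR genes were higher and lower in treated knock-in mice, 0 and 3 of 28 HIF-1 targets, 0 and 4 of 16 clock genes, 3 and 0 of 26 MiT/TFE regulators, 0 and 2 of 10 LXR genes, 1 and 0 of 14 core factors, 1 and 1 of 17 paralogs and partners, 0 and 0 of 8 MITF-dependent genes and 0 and 0 of 11 HIF regulators.

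Over the 12 libraries the 9 genes largely followed the genotype, which divides the libraries into clusters of 6, so the correlations of log2 CPM given here describe this division and carry no p-value. *Hif1a* and *Mitf* were most alike (Pearson's r = 0.995) and *Hif1a* and *Mef2a* most opposed (-0.975), while *Tfeb* had values between -0.171 and 0.470 with the other 8. Over all tested genes, *Hif1a* was closest to *Ctsb* (0.999), of the CLEAR list, followed by *Lpl* and *Fam20c*, which code for lipoprotein lipase and a secretory pathway kinase. *Mitf* was closest to *Arhgap24*, *Rxrg* and *St8sia6* (0.997 each), *Bhlhe40* to *Rpl10a*, *Atp5mpl* and *Got1* (up to 0.994) and *Bhlhe41* to *Apobec1*, *Serpinb1c* and *Antxr2* (up to 0.991). *Irf8* was closest to *Erp29*, *Commd9* and *Tapbp* (up to 0.994) and *Mef2a* to *Trp53cor1*, *Rogdi* and *Hrh2* (up to 0.992). Values were lower for *Tfec* with *Cfp*, *mt-Nd4* and *Mmp15* (up to 0.959), *Runx1* with *Tcof1*, *Ap5s1* and *B3gat3* (up to 0.927) and *Tfeb* with *Ppp1cb*, *Maz* and *Papola* (up to 0.866).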

How the data were processed

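The authors trimmed reads with Cutadapt and aligned them with STAR to GRCm38. Their table, made with featureCounts, was deposited as raw counts of reads for each gene, not normalized. The 12 columns were matched to samples by name, and 55227 of 55487 genes to symbols of GENCODE M21. The 9 genes and 20 gene lists were chosen with earlier results of these data known. edgeR 4.0.16 (R 4.3.3) was run with filterByExpr (minimum count 10), TMM factors and a quasi-likelihood fit of 4 group means. Log2 CPM used a prior count of 2, and RPKM the union of exons. Up to 4 genes per pathway list were named, those with the lowest adjusted p between genotypes after veh, and for each of the 9 genes the 3 with the highest correlation. *Tfe3*, *Elf1* and *Irf2* were named in addition, after their values were seen. Replicates are separate mice and differed beyond sampling noise (chi-square per degree of freedom 5.39 to 31.0). The promoter background leaves out 1 chromosome. Alternatives were DESeq2 1.42.0 (size factors, Wald test), fits of the compared groups, other filters, a log2 cutoff of 1, a replicate block, an astrocyte score and each library left out. Library totals, and leaving out libraries for list genes, were added after the data were seen. The fit was tested on simulated data.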

Additional observations from a re-analysis of the deposited data

How the results depend on the processing

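Of 885 values of single genes under an alternative, 849 kept their direction and their side of the adjusted p of 0.05, 13 lost the call, 3 gained one and 22 changed sign. The values that changed sign include 1 of the lost calls (*Runx1*) and 1 of those gained (*Tfeb*), both in treated mice with library totals. With a log2 cutoff of 1, 2 of the 9 genes were called between genotypes after veh and 3 in treated mice, and DESeq2's Wald test called 1 with treatment in WT mice. With a library left out, 6 to 7 were called between genotypes after veh, 7 to 8 in treated mice, and 0 in the treatment comparisons and their difference. With the astrocyte score, 2019 of all tested genes were called after veh, against 5710 in the main fit. Of the lists after veh, 22 and 1 CLEAR genes were then up- and downregulated, 16 and 0 HIF-1 targets and 4 and 1 MITF-dependent genes. For MiT/TFE regulators the counts were 3 and 2, for paralogs and partners 3 and 0 and for HIF regulators 2 and 0. For clock genes they were 1 and 2 and for LXR genes 2 and 1. Library totals gave -0.13 and -0.0516 for *Runx1* after veh and in treated mice, -0.20 for *Tfeb* in treated mice and -0.0373 for *Mef2a* with treatment in knock-in mice. In the latter comparison *Bhlhe41* was at -0.0478 with the astrocyte score, and *Mitf* at 0.00724 with DESeq2's size factors and 0.00725 with its Wald test. *Irf8* with treatment in WT mice was at -0.0119 without a filter. With libraries left out, *Mitf* ranged from -0.028 to 0.022 with treatment in knock-in mice, and in WT mice *Irf8* from -0.069 to 0.042, *Mef2a* from -0.0018 to 0.064 and *Mitf* from -0.00085 to 0.046. Differences between treatment effects ranged from -0.051 to 0.014 for *Mef2a*, -0.153 to 0.096 for *Bhlhe41* and -0.055 to 0.0057 for *Mitf*. The cause was not tested.

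The groups share replicate numbers, and equally numbered libraries deviated together only weakly (correlations -0.0148 to 0.227). Whether the numbers stand for a pairing or a shared batch is not given in the sources used here, and weak correlations cannot decide it. The replicate block gave 6 called genes between genotypes after veh, where *Tfec* was lost (log2 fold change -0.83, edgeR adjusted p = 0.0519), and 8 in treated mice, and it changed no other call of the 9 genes. Depth limits *Tfec*, which a minimum of 10 counts per library removed.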
